A study of Mus musculus with 9 samples.

Results

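Aquaporins are membrane channels that carry water down osmotic gradients, and 4 of them, Aqp1, Aqp3, Aqp4 and Aqp5, were followed here in sorted cells of the mouse trachea. The members were chosen by gene name, with earlier results of these data known. Every probe set annotated to 1 of these 4 genes was taken, whatever its signal. This gave 9 of the 45037 non-control probe sets on the array: 1 for Aqp1, 4 for Aqp3, 3 for Aqp4 and 1 for Aqp5. All 9 are shown.

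Cells came from tracheal epithelium of mice hemizygous for KRT5-GFP, a transgene that carries green fluorescent protein (GFP) under the name of keratin 5, a basal cell keratin. The tissue was dissociated with enzymes and by dissection, and cells were sorted on GFP and on binding of the isolectin GSI-A3B. The columnar gate held cells negative for both, the lectin-only gate held lectin-positive cells without GFP, and the GFP+ gate held cells positive for both; the labels call the last 2 gates basal cells. Each gate had 3 arrays, named as biological replicates, and all mice carried the transgene. The labels do not say whether replicates came from separate animals or pools, nor the animals' age, so p-values measure the spread between these arrays. Signals are log2 values after robust multi-array averaging (RMA), so a difference of 1 is a doubling.

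Aqp3 is an aquaglyceroporin, a channel that passes glycerol as well as water, and in airways it is best known from basal cells. Aqp4 is a water channel of the basolateral membrane of airway surface cells and of astrocyte endfeet, where it is held by the dystrophin complex. Aqp5 is the apical water channel of gland acini, of alveolar type I cells and of part of the airway surface. Aqp1 is the water channel of red blood cells and of much of the vascular endothelium.

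The sequences just upstream of the start sites are shown for the members whose gate patterns are contrasted below: Aqp3, lower in columnar cells on 3 of its 4 probe sets, Aqp5, not called in any comparison, and Aqp1, highest in the lectin-only gate. They are the 250 bases before each start from the RefSeq promoter table (build GRCm38.p6), read 5′ to 3′ on the gene's strand. The table held 3 of the 4 genes; Aqp4 is named only. The TATA box searched for was TATAAA. The GC box, looked for on either strand like the other motifs, was GGGCGG. Capitals mark both.
Aqp3 (chr4:41098184-41098433, minus strand): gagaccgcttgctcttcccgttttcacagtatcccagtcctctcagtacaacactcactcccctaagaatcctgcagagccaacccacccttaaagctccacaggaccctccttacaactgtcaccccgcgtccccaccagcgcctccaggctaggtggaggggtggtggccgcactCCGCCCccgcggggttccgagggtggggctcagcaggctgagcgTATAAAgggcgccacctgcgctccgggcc
Aqp5 (chr15:99590778-99591027, plus strand): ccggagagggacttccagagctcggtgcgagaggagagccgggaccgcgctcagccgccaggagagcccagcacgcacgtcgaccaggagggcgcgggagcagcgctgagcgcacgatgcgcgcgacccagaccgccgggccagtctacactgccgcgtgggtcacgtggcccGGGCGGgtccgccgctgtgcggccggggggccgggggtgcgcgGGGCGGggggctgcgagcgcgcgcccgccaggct
Aqp1 (chr6:55336049-55336298, plus strand): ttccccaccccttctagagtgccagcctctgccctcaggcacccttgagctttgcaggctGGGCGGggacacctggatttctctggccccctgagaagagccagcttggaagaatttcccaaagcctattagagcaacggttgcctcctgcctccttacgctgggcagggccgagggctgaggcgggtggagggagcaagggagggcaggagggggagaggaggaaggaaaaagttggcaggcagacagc
The Aqp3 window held 1 TATA box, beginning 29 bases upstream of the start, and 1 GC box at 73 bases. Aqp5 had 2 GC boxes, at 77 and 34 bases, and Aqp1 had 1 at 190 bases; neither held TATAAA. Of 32851 windows of this length searched on both strands, 12.4% held TATAAA and 32.7% held GGGCGG. GC content was 64.0% in the Aqp3 window, 78.4% in Aqp5 and 62.0% in Aqp1, against a median of 52.4% over all windows. No match was found in these 3 windows for CCAAT (33.8% of windows), for TGANTCA (an AP-1 site, 6.75%) or for the p53 family half-site (7.13%), and none of the matches found overlapped another.

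The gates were checked on Krt5 and Trp63, the gene of the basal cell factor p63. Krt5 (1424096_at) averaged 7.95 ± 1.12 (SD, n = 3) on the log2 scale in columnar cells, 12.88 ± 0.15 in lectin-only cells and 13.43 ± 0.01 in GFP+ cells. Trp63 had 7.62 ± 0.32, 11.94 ± 0.14 and 13.06 ± 0.13 in the same order. Lectin-only replicate 3 stood apart, with an array median of 5.43 against 4.90 to 5.16 on the other 8 arrays and 73.0% of probe sets above the background level against 65.3% to 66.3%. That background level, a log2 signal of 3.56, is the 95th percentile of 80 olfactory and vomeronasal receptor probe sets. Across probe sets, arrays of a gate correlated at 0.975 to 0.987.

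Aqp3 separated the columnar gate from both lectin-positive gates and Aqp1 separated columnar from lectin-only cells, while no probe set of Aqp4 or Aqp5 was called. A probe set was called where limma gave an adjusted p (Benjamini-Hochberg over 45037 probe sets) under 0.05 and a log2 difference of at least 1. For GFP+ against columnar cells 3 of the 9 probe sets were called higher and 0 lower, where 3.86% of all probe sets were called higher and 3.14% lower. For lectin-only against columnar cells 4 were called higher and 0 lower, against 3.81% higher and 1.28% lower over the array. For GFP+ against lectin-only cells limma called 0, against 0.451% of all probe sets higher and 1.18% lower, and 1 had an unadjusted p under 0.05. The 3 comparisons share arrays, and probe sets of 1 gene are repeat measurements of it: the calls belong to 1 gene, Aqp3, in GFP+ against columnar cells and to 2, Aqp3 and Aqp1, in lectin-only against columnar cells.

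**Figure D1:**
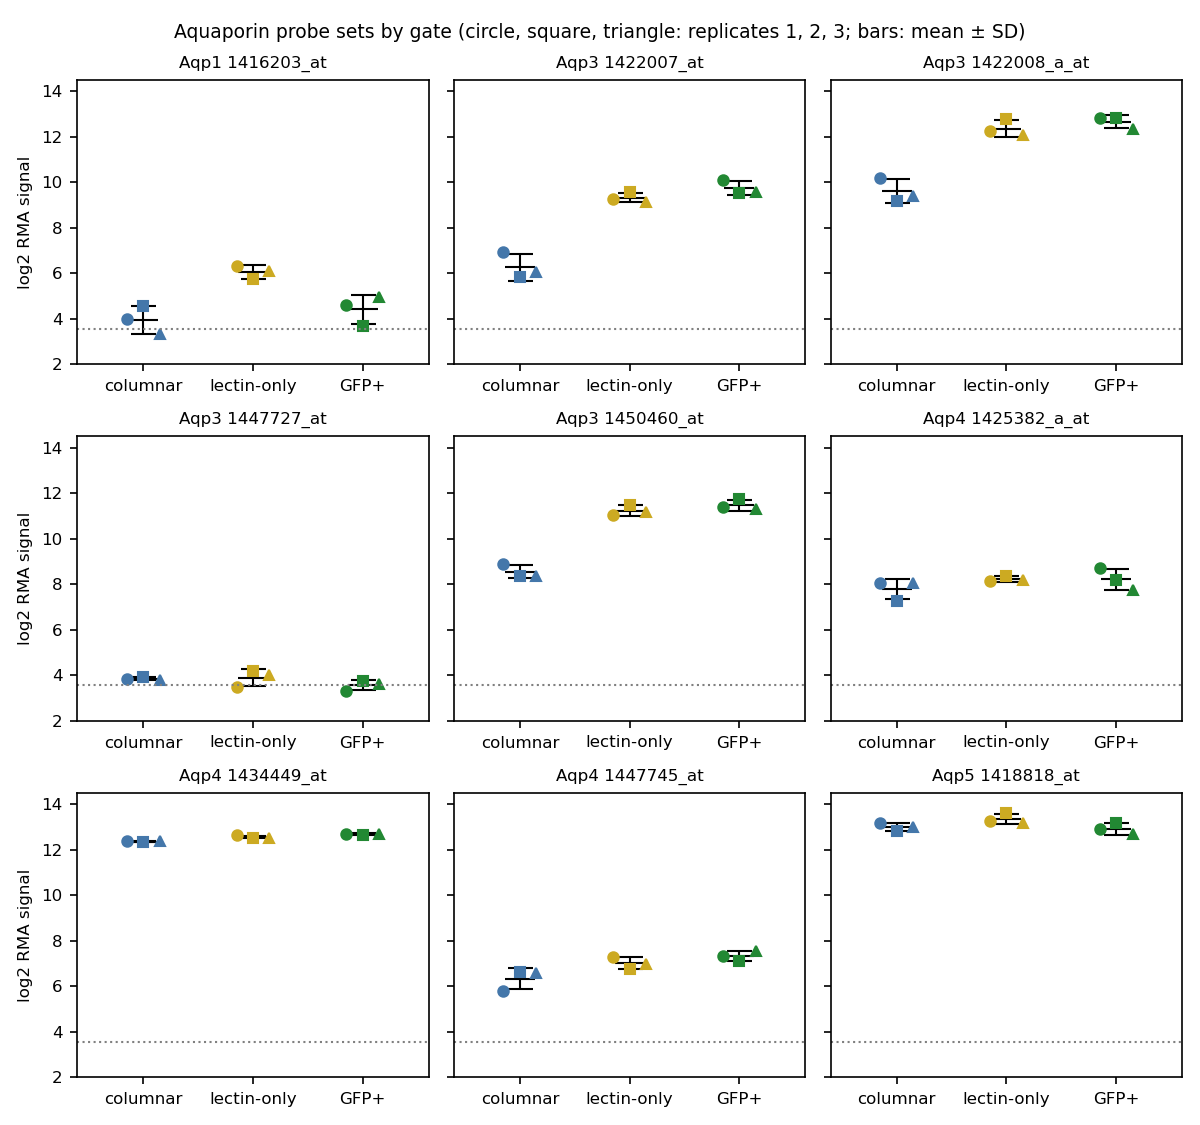
Log2 RMA signal of the 9 aquaporin probe sets (y axis) on each array by gate (x axis); symbols are replicates, black bars the mean ± SD of 3 arrays and the dotted line the background level of 3.56. Aqp3 1422008_a_at is at 9.20 to 10.21 in columnar cells and at 12.07 to 12.83 in the other gates, while Aqp5 stays between 12.68 and 13.61 on all 9 arrays.

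Without any threshold on size, 6 of 9 probe sets had arrays that did not overlap between GFP+ and columnar cells (26.5% of all probe sets did), and 8 of 9 between lectin-only and columnar cells (18.7%). In the latter the gap between gates was 1.85 to 2.22 for 3 Aqp3 probe sets and 1.19 for Aqp1. It was small for the others: 0.09, 0.14 and 0.14 for Aqp4 and 0.03 for Aqp5. Between GFP+ and lectin-only cells 2 of 9 did not overlap (14.4%). The median difference over the 9 was 0.47 for GFP+ against columnar, 0.68 for lectin-only against columnar and 0.12 for GFP+ against lectin-only cells, and over all genes it was -0.04, 0.07 and -0.10. The units differ: the first medians are over probe sets, 4 of them for Aqp3 and 3 for Aqp4, and the second over genes.

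Aqp3 was about 8 times higher in GFP+ than in columnar cells and nearly as much higher in lectin-only cells. Its brightest probe set, 1422008_a_at, had log2 signals of 10.21, 9.20 and 9.41 in columnar cells, 12.24, 12.79 and 12.07 in lectin-only cells, and 12.83, 12.83 and 12.36 in GFP+ cells. Every lectin-positive array lay above every columnar array, by at least 1.85, and the 2 lectin-positive gates overlapped. The columnar mean of 9.61 ± 0.53 was far above the background level, so Aqp3 was detected in that gate too. GFP+ exceeded columnar cells by 3.06 ± 0.30 (SE, 8.36-fold, limma adjusted p = 0.00028). Lectin-only cells exceeded columnar cells by 2.76 ± 0.30 (6.76-fold, limma adjusted p = 0.00078). The lectin-positive gates themselves differed by 0.31, with a 95% interval from -0.37 to 0.99 (limma adjusted p = 0.822).

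Both other responsive Aqp3 probe sets gave the same order of gates. 1422007_at read 6.93, 5.83 and 6.05 in columnar cells, 9.29, 9.56 and 9.15 in lectin-only cells, and 10.09, 9.54 and 9.59 in GFP+ cells. Its difference was 3.47 ± 0.30 for GFP+ against columnar (11.1-fold, limma adjusted p = 0.00013) and 3.06 ± 0.30 for lectin-only against columnar cells (8.33-fold, limma adjusted p = 0.0004). 1450460_at read 8.90, 8.38 and 8.39 in columnar cells, 11.03, 11.49 and 11.20 in lectin-only cells, and 11.40, 11.76 and 11.30 in GFP+ cells. Here the differences were 2.93 ± 0.22 (7.63-fold, limma adjusted p = 7.1e-05) and 2.68 ± 0.22 (6.43-fold, limma adjusted p = 0.0002). Between the lectin-positive gates they were 0.41 (interval -0.25 to 1.07, limma adjusted p = 0.729) and 0.25 (-0.25 to 0.75, limma adjusted p = 0.799). The highest upper bound among the 3 intervals was thus 1.07.

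The fourth probe set, 1447727_at, did not follow the other 3. It carries the Aqp3 name with no accession in the array annotation, and its signals were near background: 3.84, 3.95 and 3.79 in columnar cells, 3.47, 4.21 and 4.03 in lectin-only cells, and 3.32, 3.77 and 3.63 in GFP+ cells. It was above the background level on 7 of 9 arrays and differed by -0.29 ± 0.22 (GFP+ against columnar, limma adjusted p = 0.6) and 0.04 ± 0.22 (lectin-only against columnar, limma adjusted p = 0.961). Over the 9 arrays, which span the 3 gates, the 3 responsive probe sets correlated with one another at 0.98 to 0.99 and with this 1 at -0.30 to -0.19.

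Basal cell markers moved with Aqp3 in both comparisons with columnar cells. Of 12 genes on the basal list, 11 were called higher in GFP+ than in columnar cells and 10 higher in lectin-only than in columnar cells. In GFP+ against lectin-only cells, where no Aqp3 probe set was called, 6 were called higher. The shares of all genes called higher were 5.36%, 5.85% and 0.654% in the same order. Their summed signal spanned 13.47 to 13.77 in columnar, 14.99 to 15.47 in lectin-only and 15.50 to 15.77 in GFP+ cells (log2), with no listed gene under background in any gate. Within the columnar gate, the array with the highest Aqp3 signal (10.21) had the highest summed basal signal (13.77 against 13.47 and 13.51). Krt15, not called in any comparison, carried most of that sum and was also highest there (13.55), as was Itgb4 (7.62). Krt5 (6.71), Krt14 (4.33), Krt17 (5.33), Snai2 (4.72), Col17a1 (3.59), Dlk2 (5.07) and Cdh3 (4.4) were lowest on that array. Trp63, Ngfr and Itga6 lay in between. In sorted bulk samples, fewer cells of a type and less RNA per cell cannot be told apart, and the part of basal cell content in the Aqp3 difference was not tested.

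The genes most like Aqp3 over the 9 arrays, out of 13604 searched, were Palmd (Pearson r = 0.992), Pard6g (0.988) and Prom2 (0.987), and 298 genes exceeded 0.9. The arrays share their gates, so any gene that differs between columnar and lectin-positive cells correlates here. Palmd, which encodes palmdelphin, had gate means of 5.96, 8.02 and 8.26 in columnar, lectin-only and GFP+ cells. Pard6g, a polarity protein gene, had 8.98, 10.86 and 11.04, and Prom2, which encodes a membrane glycoprotein of cell protrusions, had 5.05, 7.81 and 8.36.

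**Figure D2:**
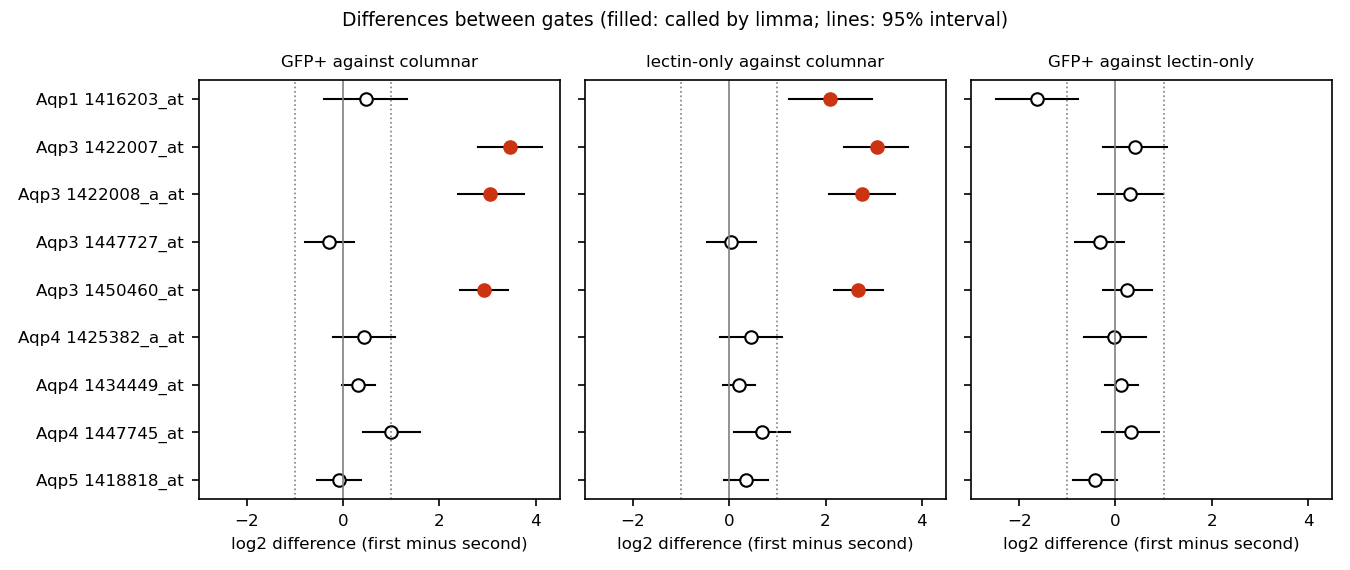
Log2 difference between gates (x axis) for each of the 9 probe sets in the 3 comparisons; points are estimates, lines 95% intervals, filled points are called by limma and dotted lines mark a difference of 1 either way. The 3 responsive Aqp3 probe sets lie between 2.68 and 3.47 in both comparisons with columnar cells, and no point is filled in GFP+ against lectin-only cells.

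Aqp4 had high signal in all 3 gates and no called difference. 1434449_at, its brightest probe set, read 12.37, 12.35 and 12.38 in columnar cells, 12.64, 12.52 and 12.54 in lectin-only cells, and 12.70, 12.64 and 12.72 in GFP+ cells. The columnar arrays were the lowest 3 without overlap, but the shift was small: 0.32 ± 0.15 for GFP+ against columnar cells (95% interval -0.02 to 0.66, limma adjusted p = 0.293) and 0.20 ± 0.15 for lectin-only against columnar cells (-0.14 to 0.53, limma adjusted p = 0.613). With arrays centred on their medians the latter difference turned to -0.05.

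The other 2 Aqp4 probe sets were dimmer and more spread. 1447745_at read 5.81, 6.63 and 6.60 in columnar cells, 7.31, 6.77 and 6.99 in lectin-only cells, and 7.35, 7.13 and 7.56 in GFP+ cells, so columnar arrays again lay below all others. GFP+ against columnar cells gave 0.998 ± 0.26 (limma adjusted p = 0.0473), just short of the size needed for a call, and lectin-only against columnar gave 0.68 ± 0.26 (limma adjusted p = 0.223). Leaving out any 1 array put the first adjusted p between 0.0544 and 0.171. 1425382_a_at read 8.04, 7.28 and 8.06 in columnar cells, 8.15, 8.39 and 8.20 in lectin-only cells, and 8.71, 8.20 and 7.77 in GFP+ cells, with GFP+ arrays overlapping both other gates. Its differences from columnar were 0.43 ± 0.29 in GFP+ (interval -0.21 to 1.08) and 0.45 ± 0.29 in lectin-only cells (-0.19 to 1.10). Between GFP+ and lectin-only cells the 3 Aqp4 probe sets differed by 0.12, 0.32 and -0.02, with limma adjusted p from 0.772 to 0.991.

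Aqp5 had high signal in all 3 gates and no called difference. Its probe set, 1418818_at, read 13.17, 12.84 and 13.01 in columnar cells, 13.25, 13.61 and 13.20 in lectin-only cells, and 12.90, 13.20 and 12.68 in GFP+ cells. The highest signal among non-control probe sets on these arrays was 14.51. GFP+ differed from columnar cells by -0.08 ± 0.20 (95% interval -0.54 to 0.38, limma adjusted p = 0.907). Lectin-only arrays lay just above both other gates, by 0.03 over the highest columnar array and by a margin of 0.01 to the highest GFP+ array. Those differences, 0.35 from columnar (-0.11 to 0.81, limma adjusted p = 0.483) and -0.43 for GFP+ against lectin-only cells (-0.89 to 0.03, limma adjusted p = 0.502), were not called. Of 10 measured markers of submucosal glands, where Aqp5 is abundant, 4 were called lower in GFP+ than in columnar cells and 2 in lectin-only than in columnar cells. Their summed log2 signal spanned 15.86 to 15.93 in columnar, 15.08 to 15.31 in lectin-only and 14.06 to 14.94 in GFP+ cells. The brightest of them in columnar cells were Bpifb1 (mean 14.39), Ltf (14.05) and Lyz2 (13.83), and Lyz2 is also on the leukocyte list used below. Pip and Prol1 were under background on all arrays of every gate. Dcpp1 was under background on all lectin-only and all GFP+ arrays, and above it in columnar cells on replicate 3 alone (7.66). Of 8 alveolar type I markers, 2 were called higher in lectin-only than in columnar cells, Emp2 and Cav1, and 1 higher (Cav1) and 1 lower (Clic5) in GFP+ than in columnar cells. Their summed log2 signal spanned 13.63 to 13.85 in columnar, 14.42 to 14.57 in lectin-only and 13.95 to 14.35 in GFP+ cells. On this list Ager was not called, with means of 6.11, 5.98 and 6.20 in the same order. Rtkn2 was under background on all columnar and all GFP+ arrays. The part of either cell type in the Aqp5 signal was not tested.

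Aqp1 was highest in lectin-only cells and close to background elsewhere. Probe set 1416203_at read 3.99, 4.55 and 3.33 in columnar cells, 6.33, 5.74 and 6.11 in lectin-only cells, and 4.61, 3.71 and 4.95 in GFP+ cells. The 3 lectin-only arrays lay above the other 6, and 2 of the 3 columnar arrays were above the background level. Lectin-only exceeded columnar cells by 2.10 ± 0.38 (4.3-fold, 95% interval 1.25 to 2.96, limma adjusted p = 0.0104). Without lectin-only replicate 1 it was 1.97 and no longer called (limma adjusted p = 0.051).

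GFP+ cells had 1.64 less Aqp1 signal than lectin-only cells on the log2 scale (3.11-fold), which missed the threshold (limma adjusted p = 0.0766, 0.0445 to 0.207 over the alternatives) although the arrays did not overlap. With 1 probe set per gene it was called (limma adjusted p = 0.0445). GFP+ against columnar cells gave 0.47 ± 0.38 (95% interval -0.39 to 1.32, limma adjusted p = 0.62).

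Markers of other cell types moved with Aqp1. Of 14 endothelial markers, 3 were called higher in lectin-only than in columnar cells, where 5.85% of all genes were. Tek, the angiopoietin receptor, rose by 2.48 ± 0.45 (limma adjusted p = 0.0106), from a columnar mean of 3.14, under the background level. Cldn5, an endothelial claudin, rose by at least 2.27-fold over the background level (limma adjusted p = 0.00335). Pecam1, a junction protein of endothelium and leukocytes, rose by 1.31 ± 0.25 (limma adjusted p = 0.0142). In GFP+ against lectin-only cells 2 were called lower, Cldn5 (-1.21) and Vwf (-2.03), and this Cldn5 call was lost under 7 of 17 alternatives. Against columnar cells, Tek and Pecam1 each lost the call without lectin-only replicate 1 or without lectin-only replicate 3, and Pecam1 also without columnar replicate 1. Their list's summed log2 signal spanned 7.89 to 8.03 in columnar, 8.61 to 9.15 in lectin-only and 7.67 to 7.96 in GFP+ cells. Cdh5, Kdr, Cldn5, Emcn and Sox17 were under background on all 3 columnar arrays, Sox17 on all 3 lectin-only arrays, and Cdh5, Tie1 and Sox17 on all 3 GFP+ arrays.

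Leukocyte markers followed the same gate: 13 of 16 were called higher in lectin-only than in columnar cells and 10 lower in GFP+ than in lectin-only cells, with summed log2 signals of 13.97 to 13.99, 15.14 to 15.61 and 12.71 to 13.50 in columnar, lectin-only and GFP+ cells. The lysozyme gene Lyz2, also on the gland list, dominated that sum at a mean of 13.83 in columnar, 13.61 in lectin-only and 12.63 in GFP+ cells, and was the 1 marker called lower in GFP+ than in columnar cells (2 were called higher). Without Lyz2, a step taken after the values were seen, the sums were 10.06 to 11.08 in columnar, 14.53 to 15.19 in lectin-only and 10.73 to 12.50 in GFP+ cells. No leukocyte marker was under background on all 3 arrays of a gate. Ptprc, the pan-leukocyte phosphatase CD45, had means of 3.25, 8.95 and 5.41 in the 3 gates. Red cell markers, by contrast, were near background: Hba-a1, Alas2 and Epb42 lay under it on all arrays, and 1 of 6 measured, Hemgn, was called higher in lectin-only than in columnar cells, a call lost with signals raised to background and without columnar replicate 1 or 3 or lectin-only replicate 3. On the smooth muscle and myoepithelial list, 2 of 8, Acta2 and Mylk, were called higher in each lectin-positive gate than in columnar cells. Cnn1 and Actg2 were under background on all 3 columnar and all 3 GFP+ arrays. The list summed to 7.06 to 7.64 in columnar, 8.74 to 9.77 in lectin-only and 8.86 to 9.65 in GFP+ cells, and without Mylk, its brightest gene in GFP+ cells (8.74), to 6.78 to 6.92, 7.95 to 9.12 and 7.31 to 8.19. The part of these cells in the Aqp1 difference was not tested.

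**Figure D3:**
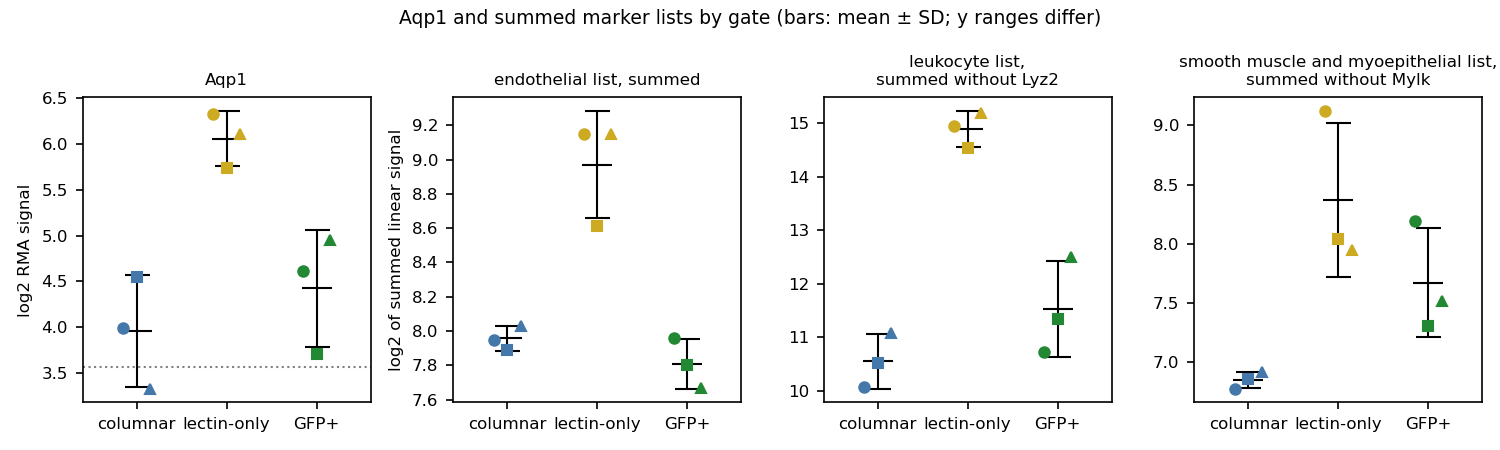
Log2 signal of Aqp1 and log2 of the summed linear signal of the endothelial list, the leukocyte list without Lyz2 and the smooth muscle and myoepithelial list without Mylk (y axes, ranges differ) by gate; symbols are arrays, bars the mean ± SD of 3. Aqp1, the endothelial sum (8.61 to 9.15) and the leukocyte sum (14.53 to 15.19) are highest on the 3 lectin-only arrays, while the last sum overlaps between lectin-only (7.95 to 9.12) and GFP+ cells (7.31 to 8.19).

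The genes most like Aqp1 over the 9 arrays were Trgv1 (r = 0.971), a T cell receptor gamma variable gene, Sparcl1 (0.945), a matricellular protein gene, and Pld4 (0.944), known from myeloid and B cells; 48 genes exceeded 0.9. Sparcl1 had gate means of 4.26, 6.93 and 4.78 in columnar, lectin-only and GFP+ cells and Pld4 had 4.36, 7.93 and 4.44. Trgv1 had 2.31, 5.04 and 2.90, so outside the lectin-only gate its means were under background.

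Of the other aquaporin genes on the array, 8 genes with 16 probe sets, Aqp11 alone had a called probe set. Aqp11 encodes an intracellular aquaporin of the endoplasmic reticulum. Its probe set 1429254_at read 7.95, 8.04 and 7.89 in columnar cells, 7.30, 7.16 and 7.98 in lectin-only cells, and 6.31, 5.81 and 6.25 in GFP+ cells. GFP+ arrays were the lowest, and the lectin-only arrays reached into the columnar range through replicate 3. Against columnar cells GFP+ cells fell by 1.84 ± 0.24 on the log2 scale (3.58-fold, limma adjusted p = 0.00139), and lectin-only cells differed by -0.48 ± 0.24 (limma adjusted p = 0.397). Against lectin-only cells GFP+ cells fell by 1.36 ± 0.24 (2.57-fold, limma adjusted p = 0.0265); this call was lost without lectin-only replicate 1 and without GFP+ replicate 1, 2 or 3, at limma adjusted p of 0.0657, 0.0774, 0.0857 and 0.0718, with signals raised to background (0.0779) and with only these 2 gates fitted (0.0761).

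The remaining Aqp11 probe sets, with gate means of 3.52 or less, were not called. Ciliated cell markers also fell in GFP+ cells, where 9 of 10 measured were called lower than in columnar cells. In lectin-only against columnar cells, where Aqp11 was not called, 6 were called lower. In GFP+ against lectin-only cells, where Aqp11 was called lower, 2 were. The summed log2 signal spanned 12.86 to 13.28 in columnar, 10.51 to 11.64 in lectin-only and 9.96 to 10.39 in GFP+ cells. Whether Aqp11 and the ciliated markers are linked was not tested.

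The other 7 genes had low signal in every gate and no call in any comparison. Aqp9, an aquaglyceroporin of liver and leukocytes, read 4.56 ± 1.03 in columnar, 4.39 ± 0.89 in lectin-only and 3.37 ± 0.40 in GFP+ cells on its brighter probe set. The kidney channel Aqp2 had means of 4.68, 4.68 and 4.59, and Aqp6, a channel of intracellular vesicles, 4.75, 4.97 and 4.52 on its brightest probe set. Aqp12, known from the pancreas, had 4.26, 4.23 and 4.05. Mip, the lens aquaporin, was above background on 2 arrays and Aqp8 on 1, while both probe sets of Aqp7, the glycerol channel of fat, were under it on all 9.

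**Figure D4:**
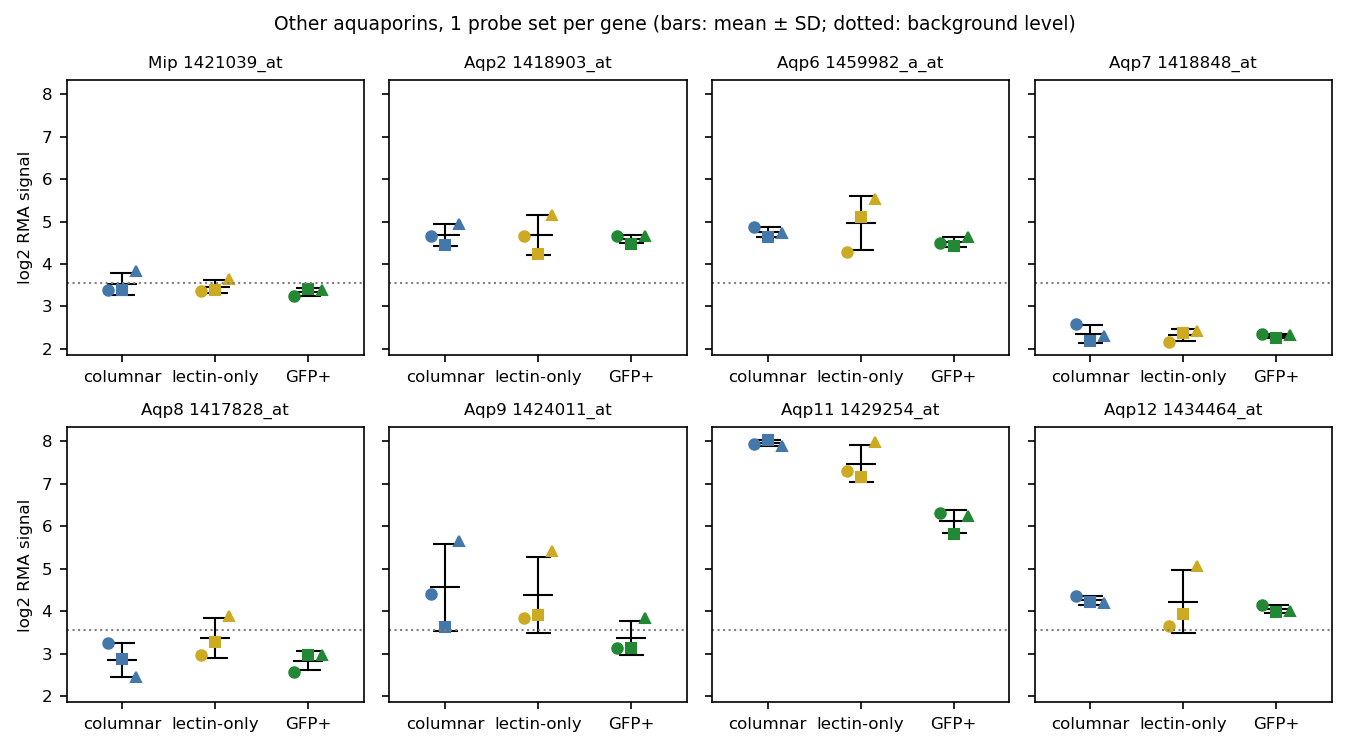
Log2 RMA signal (y axis) of the brightest probe set of each of 8 other aquaporin genes on each array by gate; bars are the mean ± SD of 3 arrays and the dotted line is the background level of 3.56. Aqp11 steps down from 7.96 in columnar to 6.12 in GFP+ cells, and the other 7 genes have gate means of 4.97 or less.

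Genes that work beside aquaporins were read from 4 further lists, with 1 probe set per gene and p-values adjusted over all 45037 probe sets. The share of genes called over the array was then 5.36% higher and 4.96% lower in GFP+ against columnar, 5.85% and 2.05% in lectin-only against columnar, and 0.654% and 2.09% in GFP+ against lectin-only cells.

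Ion channels and transporters set the gradients that water follows, and of 19 measured, 7 fell and 1 rose in GFP+ against columnar cells. The largest were Kcnn4, a calcium-activated potassium channel, at -3.16 ± 0.37 (limma adjusted p = 0.00068), and Scnn1b, the beta subunit of the epithelial sodium channel, at -3.12 ± 0.53. Kcnq1 and Kcne3, the subunits of a basolateral potassium channel, fell by 2.29 ± 0.28 and by 2.18 ± 0.20. The gene that rose, Atp12a, a proton pump, did so by 1.95 ± 0.46 (limma adjusted p = 0.0283); it lost the call on leaving out any columnar array or GFP+ replicate 2 or 3, and with signals raised to background. It, Scnn1g (-2.14) and Slc12a2 (-1.09) were named after their values were seen. Some markers of columnar cells fell beside these genes. With the ciliated list above, 5 of 11 secretory markers were called lower in GFP+ and 5 in lectin-only than in columnar cells. Among them were Muc5b, a gel-forming mucin (-3.64 and -1.73), and Tff2, a trefoil factor (-4.28 and -2.35). The secretory genes Scgb1a1, Scgb3a1, Scgb3a2, Cyp2f2, Bpifa1 and Reg3g were not called and had means of 13.29 or more in each gate. The secretory sum spanned 16.57 to 16.77 in columnar, 16.31 to 16.46 in lectin-only and 16.04 to 16.33 in GFP+ cells, with no listed gene under background in a gate. Their part in the ion transport differences was not tested.

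In lectin-only against columnar cells 2 were called higher and 0 lower. Slc26a4, the anion exchanger pendrin, rose by 2.13 ± 0.40 (limma adjusted p = 0.0119). Clcn2, a chloride channel, rose by 1.16 ± 0.25 (limma adjusted p = 0.0265). Scnn1b (-1.95, limma adjusted p = 0.0699) and Kcnn4 (-1.17, limma adjusted p = 0.125) were lower without a call. So was Slc4a4 (-0.81, limma adjusted p = 0.0467), which fell short on size. Slc26a4 lost the call without lectin-only replicate 3 and with signals raised to background. Clcn2 lost it under both rescalings (arrays centred, quantile normalization), with signals raised to background, with only these 2 gates fitted, and without columnar replicate 1 or 2 or lectin-only replicate 2 or 3. In GFP+ against lectin-only cells 4 fell and 0 rose: Kcnn4 (-1.99), Kcnq1 (-1.80), Kcne3 (-1.49) and Slc4a4, a sodium bicarbonate cotransporter (-1.10). Kcne3 kept its call under all 17 alternatives, and Kcnq1 lost it without lectin-only replicate 3 and with signals raised to background. Kcnn4 lost it without any 1 lectin-only array or GFP+ replicate 1 or 3, with signals raised to background and with only these 2 gates fitted. Slc4a4 lost it without lectin-only replicate 1 or 3 or any 1 GFP+ array, under centring, with signals raised to background and with only these 2 gates fitted. The list's median differences were -0.51, -0.50 and -0.42 in GFP+ against columnar, lectin-only against columnar and GFP+ against lectin-only cells.

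Glycerol, which Aqp3 carries, is made and used by enzymes of which 10 were measured: 1 rose and 2 fell in GFP+ against columnar cells, 1 rose and 1 fell in lectin-only against columnar cells, and 0 were called between the lectin-positive gates. Mgll, the monoacylglycerol lipase that releases glycerol, rose by 3.04 ± 0.56 in GFP+ cells (limma adjusted p = 0.00835) and by 4.13 ± 0.56 in lectin-only cells (limma adjusted p = 0.00232). Gpd1, the cytosolic glycerol 3-phosphate dehydrogenase, fell by 3.82 ± 0.32 and by 2.94 ± 0.32 (limma adjusted p = 0.00012 and 0.00078). Lipe, hormone-sensitive lipase, was lower by 1.09 ± 0.26 on the log2 scale in GFP+ cells (limma adjusted p = 0.033), a call lost without any 1 GFP+ array, columnar replicate 1 or 2, or lectin-only replicate 1, with signals raised to background, and with the replicate block (limma adjusted p = 0.0596). The median differences were -0.37, 0.15 and -0.87 in the same order of comparisons.

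Cell volume and osmolyte genes gave 3 higher and 0 lower of 14 in GFP+ against columnar cells, and limma called 0 in both other comparisons. Lrrc8c, a subunit of the volume-regulated anion channel, rose by 2.69 ± 0.53 (limma adjusted p = 0.0119), Slc5a3, the myo-inositol transporter, by 1.12 ± 0.21, and Trpv4, an osmosensitive cation channel, by 1.06 ± 0.24. The call for Lrrc8c was lost with signals raised to background (limma adjusted p = 0.0599), that for Slc5a3 without columnar replicate 3, and that for Trpv4 with arrays centred and without columnar replicate 2 or 3 or GFP+ replicate 1.

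The dystrophin-associated complex, which anchors Aqp4 in astrocytes, gave 2 higher and 1 lower of 11 in GFP+ against columnar cells, 0 and 1 in lectin-only against columnar cells, and 2 and 0 in GFP+ against lectin-only cells. Sgcd, delta-sarcoglycan, had a mean of 5.62 in GFP+ cells and was under background in both other gates, so it was at least 4.17-fold higher there (limma adjusted p = 0.00121 and 0.0104 against columnar and lectin-only cells, from the signals as deposited). With signals raised to background, as the bound assumes, the call against lectin-only cells was lost (limma adjusted p = 0.0653). Agrn, the basement membrane proteoglycan agrin, rose by 1.04 ± 0.19 against columnar and 1.17 ± 0.19 against lectin-only cells; the first call was lost with arrays centred and without columnar replicate 3 or GFP+ replicate 1, and the second without lectin-only replicate 1 or 3 or any 1 GFP+ array. Dtna, alpha-dystrobrevin, fell by 1.57 ± 0.19 in GFP+ and by 1.22 ± 0.19 in lectin-only cells against columnar cells.

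**Figure D5:**
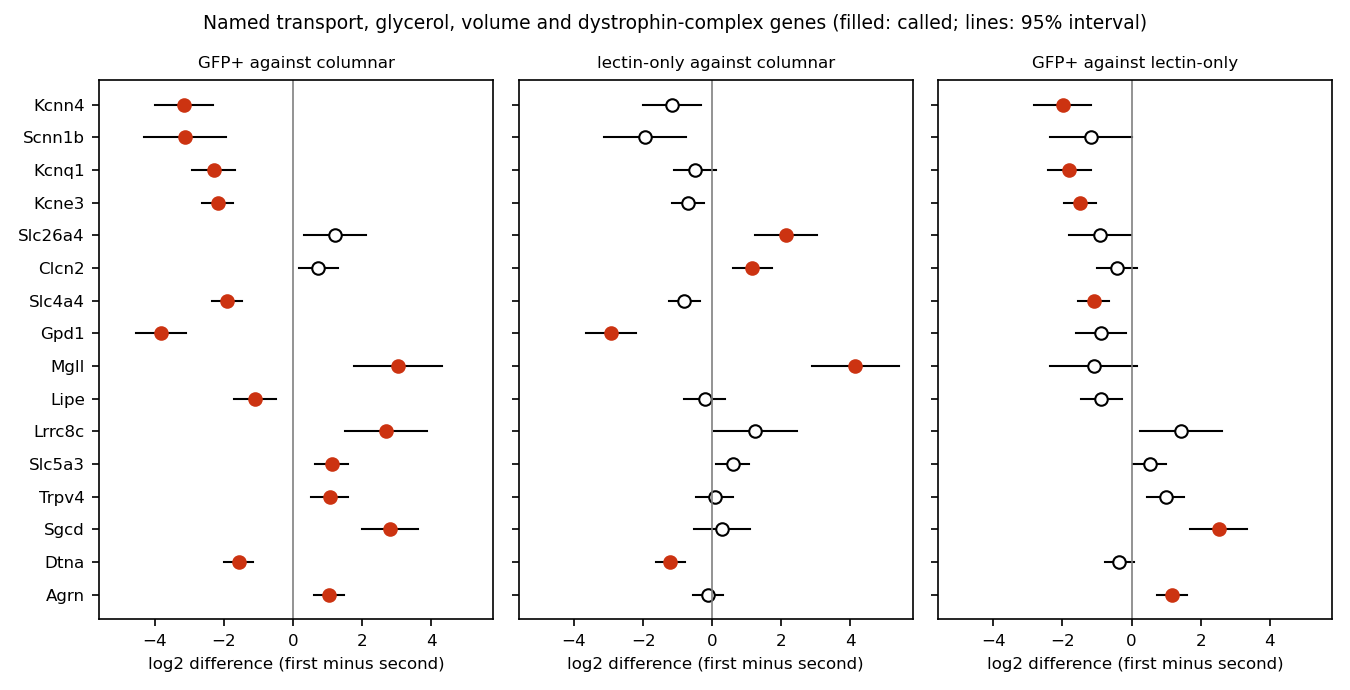
Log2 difference between gates (x axis) for the named ion transport, glycerol, volume and dystrophin-complex genes in the 3 comparisons; lines are 95% intervals and filled points are called by limma. Gpd1 (-3.82) and Kcnn4 (-3.16) lie farthest left and Mgll (3.04) farthest right in GFP+ against columnar cells.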

How the data were processed

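Affymetrix mouse arrays of 9 samples, 3 per gate, were used as the authors deposited them: log2 signals per probe set after RMA, per the submitters' processing notes. RMA subtracts background, quantile normalizes arrays and summarises probes, which compresses differences near background. The deposited signals still differed between arrays, with medians from 4.90 to 5.43. Whether all 9 arrays were normalized together was not tested. RNA was amplified before labelling, per the labels' protocols. Array scans were not used here.

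Of 45101 probe sets, 64 controls were left out. Symbols came from the platform annotation, updated through a RefSeq gene table: 34945 probe sets had 1 symbol, 932 several and 9160 none. Group means were fitted with limma 3.58.1 (R 4.3.3; lmFit and eBayes) on the 9 arrays together, for 3 comparisons, with Benjamini-Hochberg adjustment over 45037 probe sets. The fit was tested on simulated data. Lists held the brightest probe set per gene; 181 of 196 list entries were measured. A bound on a fold sets the dim gate at the background level.

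Named genes were the members, the other aquaporins, up to 4 called genes of largest difference per list and comparison, marker genes that follow a member, the 3 genes most correlated with a called member, and Krt5 and Trp63. Members and lists were chosen with earlier results of these data known. The number of arrays limits the precision. Alternatives covered scaling, the replicate block, dim probe sets, a floor at background, variance options, the gates fitted and each array left out.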

Additional observations from a re-analysis of the deposited data

How the results depend on the processing

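Calls of aquaporin probe sets varied little over 8 other settings and 9 fits that each left out 1 array. Leaving out arrays gave 3 to 3 called for GFP+ against columnar, 3 to 4 for lectin-only against columnar and 0 to 0 for GFP+ against lectin-only cells. With 1 probe set per gene, 18193 in the fit, the counts were 1, 2 and 1, and Aqp3 had 1 probe set in place of 4. Aqp1 was then called at -1.64 in GFP+ against lectin-only cells (limma adjusted p = 0.0445). Aqp1 in lectin-only against columnar cells ranged from 1.79 to 2.40 on leaving out arrays and was not called at 1.97, without lectin-only replicate 1 (limma adjusted p = 0.051). Near-zero differences changed sign. For Aqp5 in GFP+ against columnar cells they ranged from -0.22 to 0.04 on leaving out arrays. For Aqp4 in lectin-only against columnar cells 1434449_at gave -0.05 with arrays centred, and in GFP+ against lectin-only cells 1425382_a_at gave 0.14 centred, 0.09 quantile normalized, and -0.26 to 0.21 on leaving out arrays (0.05 without lectin-only replicate 2, 0.21 without GFP+ replicate 3). For Aqp3 1447727_at in lectin-only against columnar cells the values were -0.20 centred, -0.10 quantile normalized and -0.11 to 0.26 on leaving out arrays (-0.11 without lectin-only replicate 2, -0.02 without lectin-only replicate 3). The 5 pathway lists, 18, 5 and 7 calls in the report, gave 14 to 18, 4 to 8 and 3 to 7 on leaving out arrays: 8 in the second comparison without GFP+ replicate 1, and in the last 3 without lectin-only replicate 1 or 3 or GFP+ replicate 1 or 3 and 4 without GFP+ replicate 2. With arrays centred the second comparison had 10, 2 higher and 8 lower. The causes were not tested. Centring moved the median of all genes from 0.07 to -0.17 in lectin-only against columnar and from -0.10 to 0.06 in GFP+ against lectin-only cells, and it moved the share of higher calls over all probe sets from 74.9% to 57.8% and from 27.6% to 39.5%; quantile normalization gave 64.2% in the former.

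Same-numbered arrays of different gates had deviations correlating at -0.07 to 0.30 (9 pairs) and differently numbered ones at -0.40 to 0.11 (18 pairs); 8 of 9 arrays correlated best with an array of their own number, a hint of shared structure from the data. The labels give no pairing and not every same-numbered pair passed 0.1, so the block was kept as an alternative. With the replicate block 3, 4 and 0 aquaporin probe sets were called, and the called differences of Aqp3 and Aqp1 kept their side of the threshold. Over all probe sets the block gave 3483, 2636 and 987 calls against 3153, 2289 and 736. Of 40 called results of other genes named or checked, 21 kept the call under all 17 alternatives and 19 lost it under at least 1. Signal near background limits Aqp1 in columnar cells, Aqp3 1447727_at and most other aquaporins.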
